A study of Mus musculus with 15 samples.

Results

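Ugt8a, Fa2h, Gal3st1, Cers2, Elovl1, Elovl7, Aspa, Sptlc2 and Degs1 code for enzymes that build the galactolipids of myelin and the long fatty acids and acetate they are made from. They were found by gene name in a table of 14237 genes measured in mouse optic nerve, and all 9 were present. Of the 9, all passed the filter on low counts, with at least 16.2 CPM (counts scaled to library size) in each of the 15 libraries. The optic nerves came from adult mice of strain C57BL/6J. There were 3 groups with 5 biological replicates each, which carry the numbers 2 to 6. In the crush AAV-CNTF group the nerve was crushed 2 weeks after an AAV2 vector with a secretable form of ciliary neurotrophic factor (CNTF) had been given, and collected 7 days after crush. The crush AAV-null group had the same crush and times after AAV2-Null, a vector with no transgene. In the sham AAV-null group the nerve was exposed and not crushed after AAV2-Null, and the labels give no times for it. Every animal had thus received an AAV2 vector, and no group was without one. The vector was injected into the vitreous of the eye, and the tissue measured was the nerve behind it. Neither the promoter of the vector nor the cells that took it up are given by the labels.

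Myelin, the sheath that oligodendrocytes wrap around axons, is rich in galactosylceramide and its sulfated form, sulfatide. Both are built on ceramide, which joins a sphingoid base to a fatty acid, and in myelin that fatty acid is often very long and carries a hydroxyl group. In inherited human disorders, loss of FA2H causes a spastic paraplegia with white matter disease, and loss of ASPA causes Canavan disease, a leukodystrophy.

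Promoter sequences are shown first, for the 3 genes with the largest fall after crush among those the promoter table held. The table, from RefSeq on GRCm38.p6, held 8 of the 9 genes, all but Fa2h. Each line gives the 250 bases before the RefSeq start, 5′ to 3′ on the gene's strand, with each match to the GC box (GGGCGG, on either strand) in capitals. The Ugt8a window lies at chr3:125938653-125938902 on the minus strand, the Elovl7 window at chr13:108214154-108214403 on the plus strand and the Aspa window at chr11:73324638-73324887 on the minus strand.
Ugt8a: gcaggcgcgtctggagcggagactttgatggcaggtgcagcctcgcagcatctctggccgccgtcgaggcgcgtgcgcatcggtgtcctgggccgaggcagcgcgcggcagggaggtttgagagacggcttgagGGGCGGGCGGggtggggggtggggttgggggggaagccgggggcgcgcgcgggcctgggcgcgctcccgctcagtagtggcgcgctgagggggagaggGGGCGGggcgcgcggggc
Elovl7: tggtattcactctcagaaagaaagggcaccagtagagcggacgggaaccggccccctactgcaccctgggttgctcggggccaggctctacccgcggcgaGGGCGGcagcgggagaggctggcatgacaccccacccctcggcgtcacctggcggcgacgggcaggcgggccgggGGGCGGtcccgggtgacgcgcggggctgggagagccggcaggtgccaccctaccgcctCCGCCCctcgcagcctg
Aspa: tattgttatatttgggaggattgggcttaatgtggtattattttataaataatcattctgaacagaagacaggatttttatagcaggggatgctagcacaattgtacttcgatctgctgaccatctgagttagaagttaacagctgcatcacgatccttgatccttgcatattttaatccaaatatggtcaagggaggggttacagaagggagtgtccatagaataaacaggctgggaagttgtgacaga
The Ugt8a window had 76.8% G or C and 32 CpG, with 3 GC boxes of which 2 overlap in the first run of capitals. The Elovl7 window was much like it, with 73.6% G or C, 25 CpG and 3 GC boxes. The Aspa window was unlike both, with 38.8% G or C, 2 CpG and no GC box. It lies inside the span that GENCODE gives for the gene (chr11:73304992-73329596), while the Ugt8a and Elovl7 windows lie before theirs. The effect of the start used on base composition was not tested. Over all 32851 promoter windows of the table, the median was 52.4% G or C (quartiles 45.2 and 61.2) and 6 CpG (quartiles 2 and 16), and 32.7% of windows held a GC box. These 3 windows thus differed in base composition. The other motifs searched on both strands were the SOX core ACAAAG, the SREBP element TCACNCCAC, the E-box CACGTG and the CCAAT box CCAAT. They were held by 16.5%, 1.05%, 6.02% and 33.8% of all windows in that order. No window of these genes held the letters ACAAAG or TCACNCCAC. The E-box stood in the first windows of Cers2 and Degs1. The CCAAT box stood in the first windows of Gal3st1, Cers2, Elovl1, Aspa and Sptlc2, with 1 in Aspa and 3 in Sptlc2.

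Library totals were 23775487 to 29558293 expected counts with crush AAV-CNTF, 19918858 to 29138927 with crush AAV-null and 19856688 to 26411929 with sham. Crush AAV-null replicate 6 stood apart, with 3.18% of genes at 0 against at most 2.29% in the other libraries. Every edgeR and limma call on the 9 genes given below was the same with and without it. All 10 mature oligodendrocyte markers were lower in each crush group than in sham by edgeR's quasi-likelihood test. Their summed level was 17740 to 25490 CPM in crush AAV-CNTF, 21590 to 30160 CPM in crush AAV-null and 51240 to 65070 CPM in sham libraries. Of 7 markers of newly formed oligodendrocytes, 3 were higher in crush AAV-null than in sham (Tcf7l2, Itpr2 and Gpr17) and 1 lower (Bcas1). With AAV-CNTF 2 were higher (Itpr2 and Gpr17) and 2 lower (Bcas1 and Enpp6). The median log2 fold change of these 7 was 0.47 with AAV-null and 0.26 with AAV-CNTF. All 7 microglia and macrophage markers were higher in crush AAV-null than in sham, and 6 of the 7 in crush AAV-CNTF than in sham. Their summed level was 1614 to 2476 CPM in crush AAV-CNTF, 2215 to 3490 CPM in crush AAV-null and 669 to 823 CPM in sham libraries. Of the Schwann cell markers, which would mark myelin of another origin, 2 were tested (Pmp22 and Cdh19). Cdh19 averaged 37.5 ± 7.25 CPM in crush AAV-CNTF, 34.5 ± 7.21 in crush AAV-null and 63.5 ± 9.06 CPM in sham nerves, and was lower in both crush groups by edgeR (adjusted p = 0.000887 with AAV-CNTF and 0.000243 with AAV-null). Pmp22 averaged 280 ± 22.5, 264 ± 19.4 and 223 ± 38.1 CPM in those groups, and was higher with AAV-CNTF (edgeR adjusted p = 0.0249) and did not pass with AAV-null (adjusted p = 0.106). Of the astrocyte markers 5 of 6 were lower after crush with AAV-null than in sham and 4 of 6 with AAV-CNTF, with a summed level of 4234 to 5302 CPM in crush AAV-CNTF, 4043 to 5228 in crush AAV-null and 6272 to 7148 CPM in sham libraries. Of the NG2 glia markers 3 of 5 were higher in each crush group than in sham, with sums of 719.5 to 870.0, 798 to 923 and 596 to 733 CPM in the 3 groups in that order. Of the fibroblast markers 3 of 5 were higher with AAV-null and 4 of 5 with AAV-CNTF, with sums of 2913 to 7224, 2953 to 4837 and 866 to 1717 CPM.

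Level was compared between genes per length, in deposited FPKM (fragments scaled by gene length and library size). In sham nerves Fa2h was highest at 266 ± 26.8 FPKM, followed by Cers2 at 149 ± 18.8 and Ugt8a at 110 ± 16.3 FPKM (SD, n = 5). Degs1 came next at 62.9 ± 8.24 FPKM, then Elovl1 at 46.5 ± 4.18 and Aspa at 36.9 ± 4.89 FPKM. Gal3st1 at 29.9 ± 3.41, Sptlc2 at 24.4 ± 6.64 and Elovl7 at 12.3 ± 2.19 FPKM closed the order. Neighbours in it did not overlap between libraries for Fa2h and Cers2, Ugt8a and Degs1, and Degs1 and Elovl1, while the other neighbours overlapped. In both crush groups Cers2 led instead, at 116 ± 20.9 FPKM in crush AAV-CNTF and 119 ± 21.6 FPKM in crush AAV-null libraries. Fa2h came second at 93.8 ± 17.5 and 112 ± 18.1 FPKM in those groups, and its range overlapped that of Cers2 in both.

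The first question was what crush did to these genes without CNTF. After crush with AAV-null, 7 of the 9 genes were lower than in sham and none was higher, and Elovl1 and Sptlc2 passed in neither direction. The test was the quasi-likelihood test of edgeR, with p-values adjusted by Benjamini-Hochberg over all 14194 genes tested and an adjusted p under 0.05 as the threshold. It called 27.6% of all genes, 12.9% lower and 14.7% higher. The median log2 fold change was -0.63 over the 9 genes and 0.005 over all genes tested. The CPM of the 2 groups did not overlap for 7 of the 9 genes, against 20.6% of all genes. In whole nerve, fewer oligodendrocytes and less RNA per oligodendrocyte cannot be told apart. The markers given above of mature and newly formed oligodendrocytes, microglia, astrocytes, NG2 glia and fibroblasts moved beside these genes. Their part in the result was not tested.

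**Figure D1:**
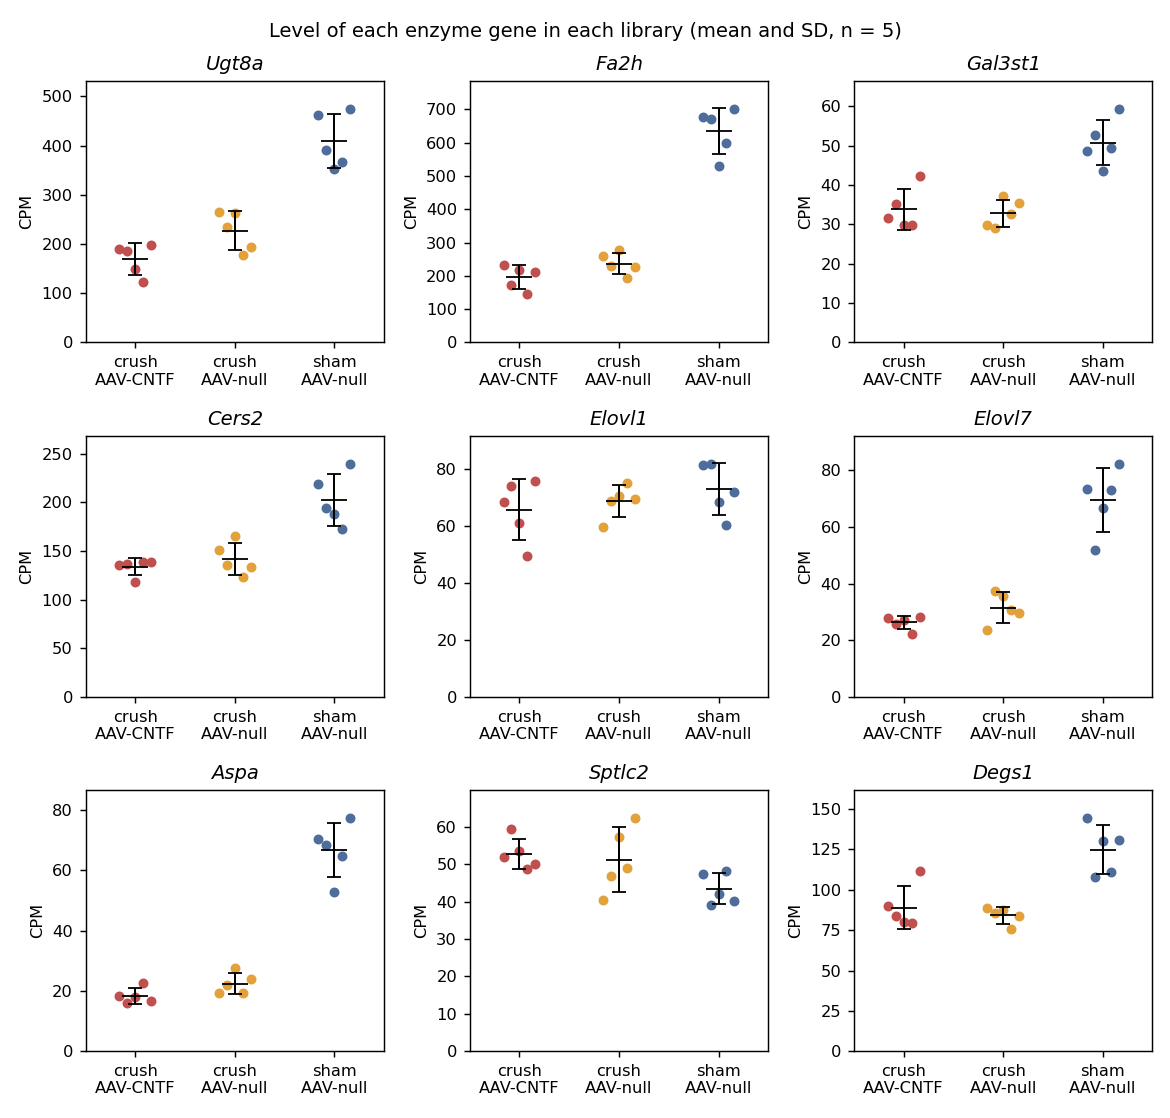
Level of each of the 9 genes in CPM (vertical axis, from 0) in every library of the crush AAV-CNTF, crush AAV-null and sham AAV-null groups, left to right. Points are libraries and bars are the mean and SD (n = 5). The crush AAV-null libraries lie below all sham libraries for every gene but Elovl1 and Sptlc2.

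The enzymes that finish the galactolipid headgroup are Ugt8a and Gal3st1. Ugt8a (chr3:125865271-125938619, minus strand) transfers galactose to ceramide, which makes galactosylceramide. Its level was 264, 235, 262, 178 and 194 CPM in crush AAV-null replicates 2 to 6, against 463, 390.1, 352, 368 and 474 CPM in sham replicates 2 to 6. The highest crush library was below the lowest sham library. Ugt8a averaged 227 ± 39.4 CPM after crush and 409 ± 55.8 CPM in sham nerves, which is 1.81-fold lower (log2 -0.85 ± 0.14 SE, edgeR adjusted p = 7.89e-05). Gal3st1 (chr11:3983636-3999326, plus strand) adds sulfate to galactosylceramide and so makes sulfatide. It ran from 29.2 to 37.1 CPM after crush with AAV-null and from 43.6 to 59.3 CPM in sham nerves, again with no overlap. The fall was smaller than that of Ugt8a in fold, 1.55-fold (log2 -0.63 ± 0.13 SE, edgeR adjusted p = 0.00106), and the difference between the 2 falls was not tested.

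Fa2h (chr8:111345135-111393824, minus strand) puts the 2-hydroxyl group on the fatty acids of myelin galactolipids. It had 259.5, 229, 277.5, 192.5 and 227 CPM in crush AAV-null replicates 2 to 6, against 676, 670.5, 530.5, 599.8 and 701 CPM in sham replicates 2 to 6. The lowest sham library was far above the highest crush library. The means were 237 ± 32.8 CPM after crush and 636 ± 69.8 CPM in sham nerves, a 2.68-fold fall (log2 -1.42 ± 0.13 SE, edgeR adjusted p = 5.22e-08). Aspa (chr11:73304992-73329596, minus strand) splits N-acetylaspartate into aspartate and acetate in oligodendrocytes, and that acetate can enter lipid synthesis. It had the largest fall of the 9 in fold, and its level per length was well below that of Fa2h. The values were 19.5, 22.0, 27.4, 19.5 and 23.9 CPM in crush AAV-null replicates 2 to 6, against 70.3, 68.4, 52.9, 64.7 and 77.2 CPM in sham replicates 2 to 6. Every crush library lay at about the same low level and none came near the sham range. The fall was 2.97-fold (log2 -1.57 ± 0.15 SE, edgeR adjusted p = 7.71e-08).

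Elovl7 and Elovl1 lengthen fatty acyl chains, Elovl7 mainly long saturated ones and Elovl1 very long ones. Elovl7 passed the test and Elovl1 did not. Elovl7 (chr13:108214404-108285683, plus strand) had 23.7, 37.4, 35.8, 30.8 and 29.7 CPM in crush AAV-null replicates 2 to 6, against 73.3, 52.0, 66.9, 72.9 and 82.4 CPM in sham replicates 2 to 6. Its lowest sham library, replicate 3, was still above every crush library, and the fall was 2.21-fold (log2 -1.14 ± 0.15 SE, edgeR adjusted p = 4.61e-06). Elovl1 (chr4:118428093-118432953, plus strand) ran from 59.7 to 74.97 CPM after crush with AAV-null and from 60.2 to 81.9 CPM in sham nerves, so the groups overlapped over most of their range. Its log2 fold change was -0.08 with a 95% interval of -0.34 to 0.17 (edgeR adjusted p = 0.676). That interval did not overlap the interval of Elovl7, -1.45 to -0.84, and it ended short of the estimate for each of the 7 genes that fell. Elovl1 shares 53 of its 2726 exonic bases (1.94%) with Cdc20 on the other strand, a cell cycle gene at 12.5 FPKM in crush AAV-null and 1.5 FPKM in sham nerves. The sources used here do not say whether the authors' counting used strand. Among the 5 listed elongase genes with FPKM, Elovl1 held 40.04% ± 4.97 of the summed FPKM after crush with AAV-null and 32.9% ± 2.46 in sham nerves, and Elovl7 held 5.09% ± 1.04 and 8.68% ± 1.45 in those groups (SD, n = 5).

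Ceramide itself is made in a series of steps that starts with serine palmitoyltransferase, of which Sptlc2 is a catalytic subunit, and passes through the ceramide synthases to the desaturase Degs1. Cers2 (chr3:95314791-95323599, plus strand) is the ceramide synthase for very long acyl chains. It ran from 123 to 165 CPM after crush with AAV-null and from 173 to 240.0 CPM in sham nerves, a 1.43-fold fall with no overlap (log2 -0.52 ± 0.10 SE, edgeR adjusted p = 0.000577). It was the leading ceramide synthase by FPKM in both groups, with 64.9% ± 7.23 of the summed FPKM of the 5 listed ones after crush and 73.6% ± 3.53 in sham nerves (SD, n = 5). Degs1 (chr1:182275772-182282804, minus strand) ran from 75.6 to 88.8 CPM after crush with AAV-null and from 108 to 144 CPM in sham nerves. Its fall was close to that of Cers2 in size, 1.48-fold (log2 -0.57 ± 0.11 SE, edgeR adjusted p = 0.000462).

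Sptlc2 (chr12:87305058-87388355, minus strand), at the entry of the pathway, was the 1 gene of the 9 with a higher mean CPM after crush with AAV-null than in sham, and it did not pass the test. It had 40.4, 46.7, 57.3, 49.0 and 62.3 CPM in crush AAV-null replicates 2 to 6, against 47.5, 39.1, 42.0, 48.2 and 40.2 CPM in sham replicates 2 to 6. The groups overlapped, and the highest value came from replicate 6, the library that stood apart. The log2 fold change was 0.24 with a 95% interval of -0.02 to 0.50 (edgeR adjusted p = 0.176), and 0.16 without that library (edgeR adjusted p = 0.406). The deposited FPKM of Sptlc2 spread more widely than its counts, from 15.7 to 46.8 FPKM in crush AAV-null and from 13.7 to 29.7 FPKM in sham libraries. Its counts per FPKM, which stand for the gene length used in each library, varied with a coefficient of variation of 30.6%, against a median of 11.8% over 10748 genes. For the other 8 genes this value was at most 11.4%, but the unit mattered for some of them too. By FPKM, crush AAV-null and sham overlapped for Cers2 (90.8 to 138 and 124 to 174 FPKM) and for Degs1 (45.2 to 59.7 and 51.4 to 72.0 FPKM). Elovl1 averaged 49.2 ± 4.47 FPKM in crush AAV-null and 46.5 ± 4.18 FPKM in sham nerves, the reverse order of its CPM. The Sptlc2 fold changes given here rest on counts, and that choice was made after these values were seen.

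**Figure D2:**
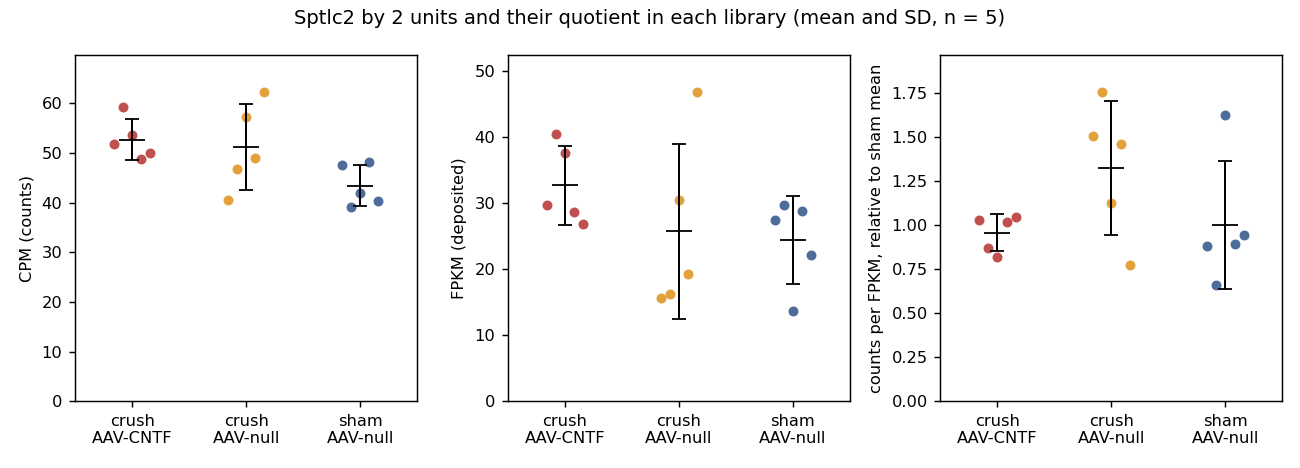
Sptlc2 in CPM, in deposited FPKM and as counts per FPKM relative to the sham mean, each on an axis from 0, by library in the crush AAV-CNTF, crush AAV-null and sham AAV-null groups. Bars are mean and SD (n = 5). The CPM panel spans 39.1 to 62.3 over all libraries while the FPKM panel spans 13.7 to 46.8.

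The second question was whether CNTF changed these genes after crush. None of the 9 passed in either direction in crush AAV-CNTF against crush AAV-null nerves, in a comparison where edgeR called 0.0564% of all genes. That was 6 genes higher (0.0423%) and 2 lower (0.0141%) of the 14194 tested. At an unadjusted p under 0.05 there were 2 of the 9, Ugt8a and Fa2h, beside 1090 of all genes, and DESeq2 also called none of the 9. The median log2 fold change was -0.08 over the 9 genes and -0.004 over all genes, and no gene of the 9 had groups without overlap, against 1.55% of all genes.

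Ugt8a had the largest difference of the 9. Its level was 189.9, 185, 150.2, 123 and 199 CPM in crush AAV-CNTF replicates 2 to 6, against 264, 235, 262, 178 and 194 CPM in crush AAV-null replicates 2 to 6. Most AAV-CNTF libraries lay under most AAV-null libraries, but the upper AAV-CNTF libraries reached into the AAV-null range. The means were 169 ± 31.99 CPM with AAV-CNTF and 227 ± 39.4 CPM with AAV-null. The log2 fold change was -0.42 with a 95% interval of -0.71 to -0.13, and the edgeR adjusted p was 0.37 (0.166 to 0.722 over the alternatives). Fa2h averaged 196 ± 35.5 CPM with AAV-CNTF and 237 ± 32.8 CPM with AAV-null (log2 -0.27, 95% interval -0.53 to -0.01, edgeR adjusted p = 0.626). Aspa and Elovl7 had intervals that just included 0, from -0.59 to 0.01 and from -0.56 to 0.04 on the log2 scale.

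For the remaining 5 genes the interval of the difference between AAV-CNTF and AAV-null was centred near 0. Gal3st1 had a log2 fold change of 0.04 (95% interval -0.23 to 0.32), Cers2 -0.08 (-0.30 to 0.13), and Elovl1 -0.07 (-0.32 to 0.19). Sptlc2 had 0.04 (-0.22 to 0.30) and Degs1 0.08 (-0.15 to 0.30), and the edgeR adjusted p was at least 0.941 for each of the 5. Differences inside these intervals are compatible with the spread between these replicates. Larger ones could also go uncalled after adjustment over all genes, since Ugt8a did not pass with an interval that excluded 0.

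**Figure D3:**
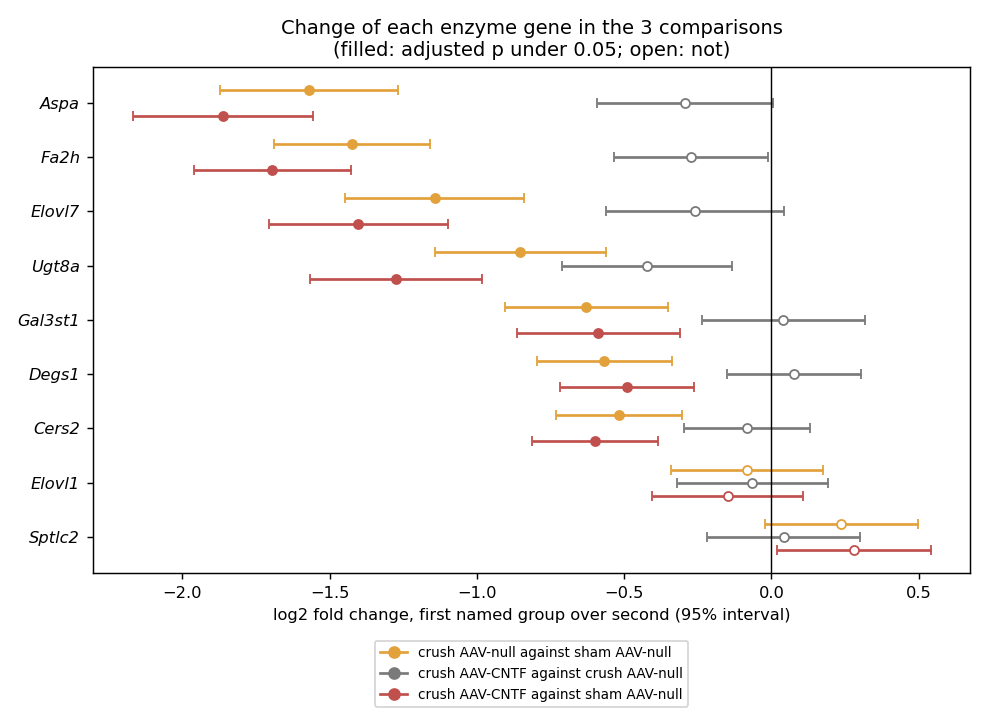
Log2 fold change of each gene (horizontal axis, with 95% intervals) in the 3 comparisons, the first named group over the second. Filled points have an edgeR adjusted p under 0.05. The points of both crush against sham comparisons are filled for 7 genes and open for Elovl1 and Sptlc2, and all points of crush AAV-CNTF against crush AAV-null are open.

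Crush with AAV-CNTF was also compared with sham, a comparison that shares its libraries with the 2 above and is not independent of them. It gave 7 of the 9 genes lower and none higher, beside 31.3% of all genes called by edgeR, 14.3% lower and 17% higher. Aspa had 18.3, 16.2, 18.0, 22.6 and 16.6 CPM in crush AAV-CNTF replicates 2 to 6, and none of these reached the sham range of 52.9 to 77.2 CPM. Its log2 fold change was -1.86 ± 0.15 SE (edgeR adjusted p = 1.03e-08). Fa2h fell by 1.69 ± 0.13 SE on the log2 scale (edgeR adjusted p = 6.4e-09). Elovl7 fell by 1.40 ± 0.15 (adjusted p = 3.14e-07) and Ugt8a by 1.27 ± 0.14 (adjusted p = 6.2e-07). These 4 are also the ones that fell most after crush with AAV-null. Cers2, Gal3st1 and Degs1 fell by 0.60, 0.59 and 0.49 (edgeR adjusted p = 0.000114, 0.00169 and 0.00156 in that order). Degs1 passed although its groups overlapped, because crush AAV-CNTF replicate 6 at 112 CPM was above the lowest sham library at 108 CPM. Elovl1 had a log2 fold change of -0.15 with a 95% interval of -0.41 to 0.11 (edgeR adjusted p = 0.403).

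Sptlc2 had 51.8, 59.3, 53.6, 48.7 and 50.1 CPM in crush AAV-CNTF replicates 2 to 6. All 5 were above the highest sham library at 48.2 CPM, by a narrow margin. Its log2 fold change was 0.28 with a 95% interval of 0.02 to 0.54, and it did not pass (edgeR adjusted p = 0.0966, with 0.0589 to 0.213 over the alternatives). Groups did not overlap for 7 of the 9 genes, Sptlc2 among them, against 23% of all genes. The median log2 fold change was -0.60 over the 9 genes and 0.005 over all genes. By the authors' deposited table, adjusted p-values are under 0.05 for 7 of the 9 genes in each crush against sham comparison and none in crush AAV-CNTF against crush AAV-null, where the authors' deposited table gives 0.247 as the lowest, for Ugt8a.

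Since the 10 mature oligodendrocyte markers fell as well, each gene was also placed relative to their mean log2 CPM in its own library. This difference was tested over all genes with limma. On this scale Fa2h and Aspa were lower after crush with AAV-null than in sham, so they fell by more than the marker mean. Fa2h differed by -0.39 ± 0.11 SE (limma adjusted p = 0.00225) and Aspa by -0.53 ± 0.18 SE (limma adjusted p = 0.0111). Over the alternatives Fa2h ran from -0.42 to -0.28 and Aspa from -0.57 to -0.42. Both passed in each, but the limma adjusted p reached 0.0264 for Fa2h and 0.0491 for Aspa, just under the threshold. The 10 markers did not fall alike in crush AAV-null against sham, with a median log2 fold change of -1.05 by edgeR. Mobp, 1 of them, had -1.55, beside -1.42 for Fa2h and -1.57 for Aspa. Cldn11, another, ran from 1090 to 1356 CPM after crush with AAV-null and from 1317 to 1840 CPM in sham nerves. A fall beyond the marker mean is thus not a fall beyond every marker. Of all genes 76.2% passed relative to the marker mean in either direction and 0.972% were lower. Elovl7 at -0.11 (limma adjusted p = 0.563) and Ugt8a at 0.18 (limma adjusted p = 0.143) did not pass. With 4 markers in place of 10, Ugt8a was at 0.29 and passed as higher (limma adjusted p = 0.0236), which made 6 genes higher. Relative to the 10 markers the other 5 genes were higher, at 0.41 for Gal3st1, 0.48 for Degs1, 0.52 for Cers2, 0.96 for Elovl1 and 1.26 for Sptlc2. Higher is the common outcome there, with 75.2% of all genes and a median over all genes of 1.04, so these 5 of 9 are near the background. In crush AAV-CNTF against sham the same 2 genes were lower, Fa2h at -0.56 (limma adjusted p = 6.35e-05) and Aspa at -0.71 (limma adjusted p = 0.00125), beside 1.08% of all genes. The same 5 genes were higher, beside 78.8% of all genes, and 79.9% passed in either direction. In crush AAV-CNTF against crush AAV-null none of the 9 passed on this scale by limma, where 0.0564% of all genes did and Ugt8a was at an unadjusted p of 0.00924 (limma adjusted p = 0.468). Of the 9 it was the 1 gene under an unadjusted 0.05 there.

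Each galactolipid enzyme was set against a partner enzyme within the same library, as a ratio of FPKM, with 4 ratios in 3 comparisons and p-values adjusted over the 12. These ratios are of whole nerve, where the cell markers given above moved as well, and their part in the ratios was not tested. Ugt8a itself was lower than in sham by 0.85 with AAV-null and 1.27 with AAV-CNTF on the log2 scale by edgeR. Ugcg, glucosylceramide synthase, competes with Ugt8a for ceramide. The Ugt8a to Ugcg ratio was 8.05, 6.09, 3.57, 3.64 and 8.87 in crush AAV-CNTF replicates 2 to 6, and 8.06, 8.16, 16.4, 5.79 and 6.82 in crush AAV-null replicates 2 to 6. In sham replicates 2 to 6 it was 29.1, 14.96, 12.4, 18.1 and 19.8. All AAV-CNTF libraries lay under all sham libraries, while crush AAV-null replicate 4 reached into the sham range. The mean log2 ratio was 1.68 lower in crush AAV-CNTF than in sham (exact permutation test, two-sided, p = 0.00794, the smallest 5 against 5 can give, adjusted p = 0.0476). In crush AAV-null it was 1.101 lower than in sham, and that difference did not pass (exact permutation p = 0.0238, adjusted p = 0.0714).

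Galc, galactosylceramidase, breaks down the product of Ugt8a. The Ugt8a to Galc ratio had a geometric mean of 3.10 in crush AAV-CNTF, 3.64 in crush AAV-null and 8.07 in sham libraries. Crush AAV-CNTF was lower than sham with no overlap (log2 difference -1.38, exact permutation p = 0.00794, adjusted p = 0.0476). For crush AAV-null the difference from sham was -1.15 (exact permutation p = 0.0159, adjusted p = 0.0635), and 1 library, replicate 4 at 5.55, lay inside the sham range of 4.92 to 12.5. With AAV-CNTF against AAV-null neither ratio passed (exact permutation adjusted p = 0.274 for Ugcg and 0.486 for Galc). Without crush AAV-null replicate 4, the library inside the sham range, both Ugt8a ratios passed in crush AAV-null against sham (exact permutation adjusted p = 0.0476 each). Neither passed there without any other library. With each of the 10 left out in turn, the exact permutation adjusted p reached 0.143 for Ugcg and 0.127 for Galc. Leaving out any 1 of the 10 libraries ended both calls in crush AAV-CNTF against sham, where 5 against 4 libraries cannot give an exact permutation p under 0.0159 (adjusted p from 0.0635 to 0.0952). With expected counts in place of FPKM both Ugt8a ratios passed in crush AAV-null against sham as well (exact permutation adjusted p = 0.0272 for Ugcg and 0.0159 for Galc). The ratio of Gal3st1 to Arsa, the arylsulfatase that takes the sulfate off sulfatide, and that of Cers2 to Cers5, a ceramide synthase for shorter chains, passed in no comparison by FPKM (exact permutation adjusted p from 0.229 to 0.802). By expected counts Gal3st1 to Arsa was lower in crush AAV-null than in sham by 0.72 on the log2 scale, and Cers2 to Cers5 was lower by 0.94 in crush AAV-null and by 0.66 in crush AAV-CNTF (exact permutation adjusted p = 0.0159 for each). The counts per FPKM of Arsa and Cers5 varied between libraries with coefficients of variation of 23.0% and 22.3%, also above the median over all genes. For Galc and Arsa themselves no fall was detected. Galc averaged 49.3 ± 10.3 CPM in crush AAV-CNTF, 59.1 ± 11.3 in crush AAV-null and 45.5 ± 5.59 in sham nerves, and Arsa 33.1 ± 6.02, 36.2 ± 5.12 and 34.0 ± 6.01 CPM in those groups, and neither passed in any comparison by edgeR.

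**Figure D4:**
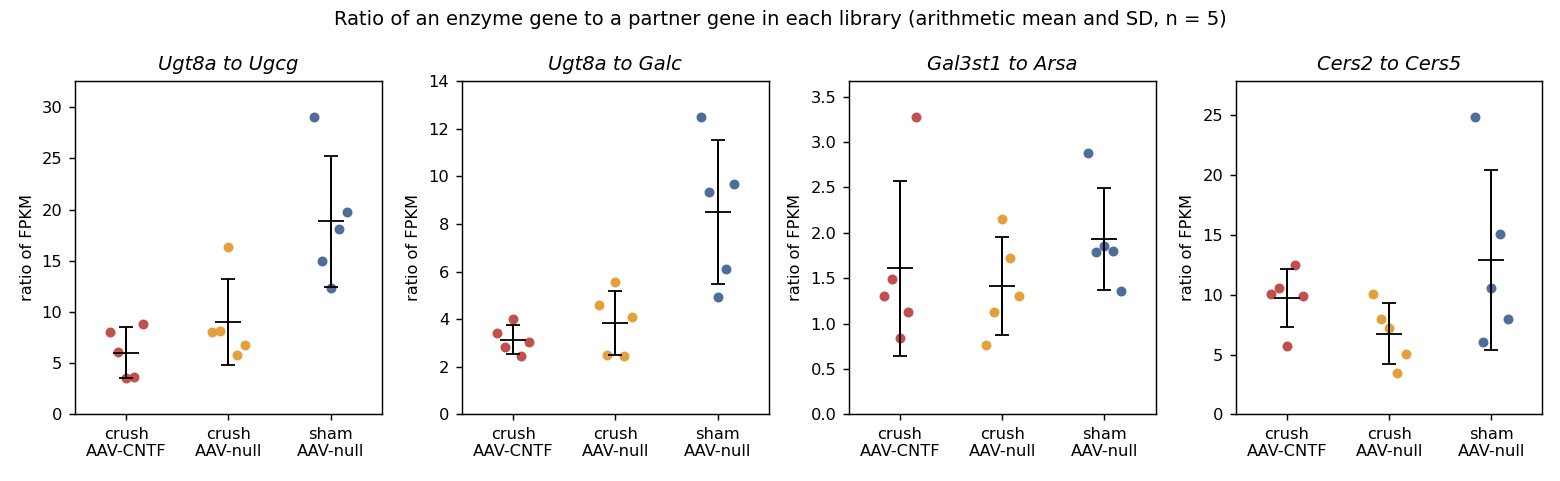
Ratio of FPKM of an enzyme gene to its partner gene (vertical axes, from 0) in every library of the crush AAV-CNTF, crush AAV-null and sham AAV-null groups, with arithmetic mean and SD (n = 5). For the 2 Ugt8a ratios all crush AAV-CNTF libraries lie under all sham libraries, and crush AAV-null replicate 4 lies inside the sham range.

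Among the rest of lipid metabolism, most listed genes of fatty acid synthesis and desaturation fell. In crush AAV-null against sham, 9 of the 10 were lower by edgeR, beside 12.9% of all genes, and Me1 did not pass, with a median log2 fold change of -0.62. The stearoyl-CoA desaturase Scd1 averaged 331 ± 40.5 CPM after crush with AAV-null and 819 ± 66.2 CPM in sham nerves (log2 -1.31, edgeR adjusted p = 3.22e-08). Acss2, which turns acetate into acetyl-CoA, fell by 1.02 on the log2 scale (edgeR adjusted p = 0.000163). With AAV-CNTF against sham the same 9 were lower, beside 14.3% of all genes, Acss2 by 1.68 (edgeR adjusted p = 4.66e-07). In the list for elongation beyond the 2 genes above, 4 of 9 tested were lower and 1 higher after crush with AAV-null, beside 12.9% and 14.7% of all genes. The enoyl reductase Tecr fell by 0.55 and the elongase Elovl6 by 0.55 (edgeR adjusted p = 0.000344 and 0.0212 in that order), while Hacd4, a dehydratase, rose by 0.70 (edgeR adjusted p = 0.000891). With AAV-CNTF against sham 3 of the 9 were lower and 1 higher, beside 14.3% and 17% of all genes. For very-long-chain fatty acid activation and peroxisomal oxidation, 4 of 12 were lower and 1 higher after crush with AAV-null, beside the same 12.9% and 14.7% of all genes. The acyl-CoA synthetases Acsl3 and Acsl6 fell by 1.496 and 1.263 (edgeR adjusted p = 2.04e-08 and 5.94e-06 in that order), and the peroxisomal transporter Abcd2 rose by 2.29 (edgeR adjusted p = 2.63e-06). With AAV-CNTF against sham 5 were lower and 2 higher, beside the same 14.3% and 17% of all genes.

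Of 13 listed genes that break down galactolipids and other sphingolipids, 9 were higher after crush with AAV-null than in sham and none lower by edgeR, beside 14.7% and 12.9% of all genes, with a median log2 fold change of 0.67. The beta-galactosidase Glb1 averaged 57.5 ± 11.3 CPM after crush with AAV-null and 16.5 ± 4.40 CPM in sham nerves, with no overlap (log2 1.80, edgeR adjusted p = 9.5e-07). Galc and Arsa, the ratio partners that act on the products of Ugt8a and Gal3st1, were among the 4 that did not pass. Their log2 fold changes were 0.38 and 0.09 (edgeR adjusted p = 0.0722 and 0.731 in that order). With AAV-CNTF against sham 9 of the 13 were higher and 1 lower, beside 17% and 14.3% of all genes. The lower 1 was Smpd1, a sphingomyelinase, by 0.29 (edgeR adjusted p = 0.0436). All 7 microglia and macrophage markers were higher beside these genes in crush AAV-null, as given above, and their part in the result was not tested.

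**Figure D5:**
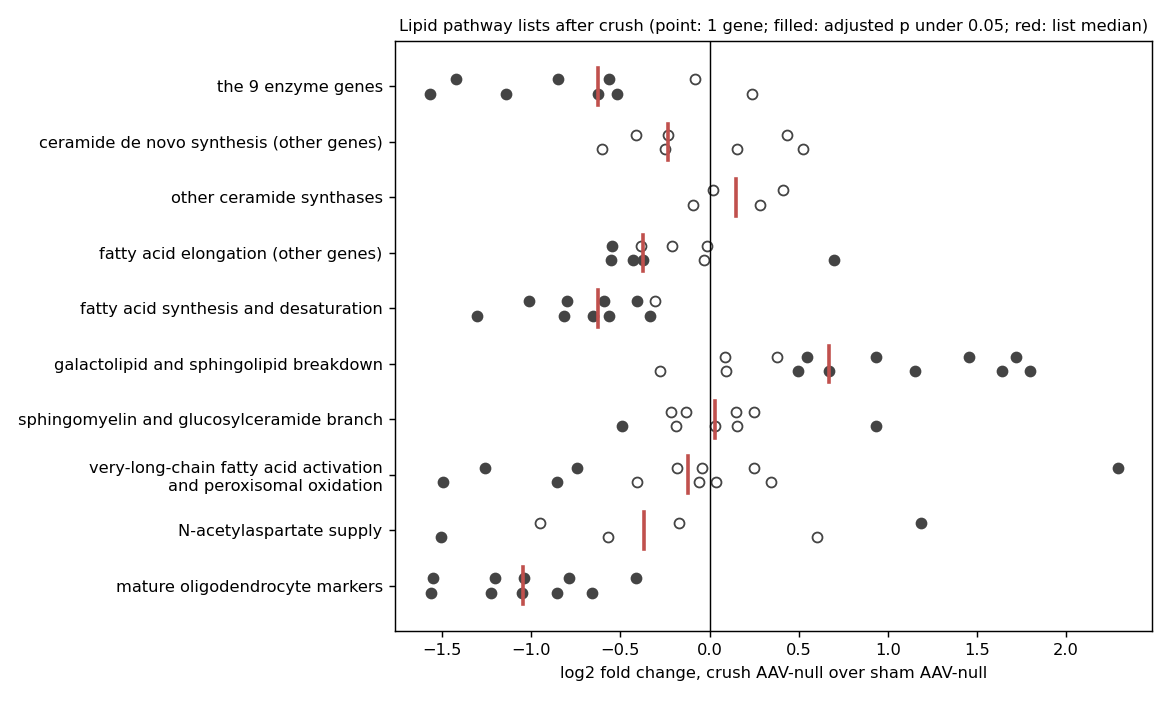
Log2 fold change in crush AAV-null over sham AAV-null (horizontal axis) for the 9 enzyme genes, 8 lists of other lipid genes and the mature oligodendrocyte markers. Each point is 1 gene, filled where the edgeR adjusted p is under 0.05, and the red line is the median of the list. Fatty acid synthesis lies left of 0 (median -0.62) and breakdown mostly right of it (median 0.67).

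Among the other genes of ceramide synthesis no change passed after crush with AAV-null. None of the 7 tested partners of Sptlc2 and Degs1 and none of the 4 other ceramide synthases passed in crush AAV-null against sham by edgeR, where 27.6% of all genes did. DESeq2 called none of these either, and at an unadjusted p under 0.05 edgeR gave 1, Cers5, with a log2 fold change of 0.41 (edgeR adjusted p = 0.0876). In crush AAV-CNTF against sham Sptssa, a small subunit of serine palmitoyltransferase, was lower by 0.58 (edgeR adjusted p = 0.0441). Cers6, a ceramide synthase for shorter chains, was higher by 0.47 in that comparison (edgeR adjusted p = 0.0169). In the sphingomyelin and glucosylceramide list, 1 of 9 tested was higher and 1 lower after crush with AAV-null, beside 14.7% and 12.9% of all genes. B4galt5, a lactosylceramide synthase, rose by 0.94 and Sgms1, a sphingomyelin synthase, fell by 0.49 (edgeR adjusted p = 0.00037 and 0.00606 in that order). The other 7 tested did not pass. With AAV-CNTF against sham B4galt5 was 1.03 higher (edgeR adjusted p = 0.000119) and was the 1 gene of that list to pass.

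Around Aspa, 6 listed genes make, carry or use N-acetylaspartate or its parts. In crush AAV-null against sham 1 of the 6 was lower and 1 higher, beside 12.9% and 14.7% of all genes, so these counts are near the background. Folh1, which releases N-acetylaspartate from a dipeptide, fell by 1.51 (edgeR adjusted p = 0.0318). Acss1, a mitochondrial acetyl-CoA synthetase, rose by 1.19 (edgeR adjusted p = 0.0419). The other 4 did not pass. In crush AAV-CNTF against sham 4 of the 6 were lower and none higher, beside 14.3% and 17% of all genes. Folh1 was lower by 1.95 and Rimkla, which makes that dipeptide, by 1.94 (edgeR adjusted p = 0.00613 and 0.00969 in that order). Folh1 was at 2.12 ± 1.05 CPM in crush AAV-CNTF, 2.89 ± 1.78 CPM in crush AAV-null and 8.21 ± 2.48 CPM in sham nerves, so these folds rest on few counts. In crush AAV-CNTF against crush AAV-null none of the 70 tested genes of the 8 lists passed by edgeR or DESeq2. By edgeR 13 of the 70 had an unadjusted p under 0.05, beside 1090 of all 14194 genes tested.

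Likeness of pattern was measured as the root mean square difference of log2 CPM over the 15 libraries, with each gene centred on its own mean, against 11684 other genes of at least 5 CPM. The genes nearest to Ugt8a were Gjc3, a connexin, and Phactr1, both at 0.15, and Rcbtb1 at 0.17. The gene nearest to Fa2h was Mobp, a myelin protein and 1 of the 10 oligodendrocyte markers, at 0.15. The nearest genes to the others were Faim2 for Aspa at 0.17, Id4 for Elovl7 at 0.18, and Dip2b for Cers2 at 0.10. They were Tbc1d5 for Gal3st1 at 0.12, Kif1bp for Degs1 at 0.11, Peli2 for Elovl1 at 0.11 and Chordc1 for Sptlc2 at 0.11. Among the 9 genes themselves Cers2 and Degs1 were closest at 0.15, followed by Gal3st1 and Cers2 at 0.17 and Gal3st1 and Degs1 at 0.17. Fa2h and Aspa were at 0.25 from each other, and Aspa and Sptlc2 were farthest apart at 0.96.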

How the data were processed

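RNA was measured in 15 optic nerve libraries. The submitters' processing notes name Trimmomatic 0.32, STAR 2.5.3a, RSEM 1.2.31, DESeq2, R 3.2.3 and the build mm10. The annotation was not given in the sources used here. Protocols in the labels name 2 library kits without saying which library had which. Per the file headers the authors deposited expected counts and FPKM per gene and library, and a log2 fold change and an adjusted p-value per pair of groups. In each deposited gene some group has 4 or more libraries at 1 FPKM or higher. Library totals of 19856688 to 29558293 leave counting error small for these genes, and the spread between replicates limits precision.

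Expected counts were rounded and tested in R 4.3.3 with edgeR 4.0.16 (TMM, filterByExpr, quasi-likelihood, 1 mean per group over 15 libraries, 12 residual degrees of freedom, 14194 genes, Benjamini-Hochberg, threshold 0.05). CPM uses TMM-scaled totals. Levels relative to oligodendrocyte markers used limma 3.58.1 on log2 CPM with a prior count of 2. Ratios used exact permutation tests. The edgeR and limma code was tested on simulated data. P-values measure the spread between these samples, described as biological replicates. The 9 genes and the gene lists were chosen with earlier results of these data known. Of each list the text names up to 2 genes past the threshold each way per comparison, with the largest change, or the most abundant where none passed, plus the ratio partners. A gene that this rule selects is not reported here. Me1 and Cers5's unadjusted p were named after their values were seen. Positions are from GENCODE M21 on GRCm38. Same-numbered replicates were not paired, since deviations from group means correlated by -0.05 to 0.11. The best match was the same number in 3 of 15 pairs, namely replicates 2, 3 and 5 of crush AAV-CNTF and crush AAV-null. Alternatives were other normalizations, filters and tests (DESeq2 1.42.0, limma-voom), a replicate block, 4 markers, counts in place of FPKM, a pseudocount and each library left out.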

Additional observations from a re-analysis of the deposited data

Results flagged for a closer look

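Of 39 groups of 5 libraries examined for a value far from the other 4 (the CPM of the 9 genes and the 4 ratios), 1 had one. Cers2 in crush AAV-CNTF replicate 4 was at 118.5 CPM, under the other 4 libraries of that group at 136 to 139 CPM. Its gap to the nearest of them was 0.845 of the range of the group, above the critical value of 0.71 for 5 values. Chance gives such a value in about 1 of 20 groups. The cause was not tested.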

How the results depend on the processing

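In crush against sham, with either vector, 7 of the 9 genes were lower in each of the 20 settings, and none passed in crush AAV-CNTF against crush AAV-null. The number of all genes called there was less stable. Against 6 higher and 2 lower, DESeq2 gave 55 and 23, only the 10 libraries compared 1 and 0, and leaving out crush AAV-null replicate 6 with crush AAV-CNTF replicate 4 gave 2 and 0. The replicate block gave 14 higher, limma-voom 3 higher, and leaving out 1 library 1 to 38 higher and 0 to 3 lower. The 38 came without crush AAV-CNTF replicate 6, with 14 without replicate 3 and 10 without replicate 5 of that group, and at most 3 higher without any other library. The replicate block changed no call on the 9 genes. The causes were not tested.

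With 4 markers in place of 10, Elovl7 in crush AAV-null against sham turned to 0.0068 and Ugt8a in crush AAV-CNTF against sham to 0.079, both near 0 and not past the threshold. Ugt8a in crush AAV-null against sham moved to 0.29 and passed (limma adjusted p = 0.0236), which made 6 of the 9 genes higher on that scale. With counts in place of FPKM 5 ratios passed that had not. In crush AAV-null against sham they were Ugt8a to Ugcg at -1.003, Ugt8a to Galc at -1.23, Gal3st1 to Arsa at -0.72 and Cers2 to Cers5 at -0.94, and in crush AAV-CNTF against sham Cers2 to Cers5 at -0.66. In the sign-flip test with replicate block, whose smallest p is 0.0625, the Ugt8a ratios to Ugcg and Galc in crush AAV-CNTF against sham, at -1.68 and -1.38, did not pass by construction.

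Without 1 library, Ugt8a to Ugcg in crush AAV-CNTF against sham ran from -1.85 to -1.51 and Ugt8a to Galc from -1.56 to -1.22. Neither passed in any of these, where the smallest exact p is 0.0159 and the adjusted p ran from 0.0635 to 0.0952. In crush AAV-null against sham they ran from -1.34 to -0.93 and from -1.33 to -0.99. The exact permutation adjusted p ran from 0.0476 to 0.143 and from 0.0476 to 0.127 in that order. Cers2 to Cers5 in crush AAV-CNTF against sham ran from -0.50 to 0.01006, and Gal3st1 to Arsa in crush AAV-CNTF against crush AAV-null from -0.19 to 0.30. Uncalled values that changed sign in crush AAV-CNTF against crush AAV-null were Degs1 (-0.019 to 0.12), Elovl1 (-0.12 to 0.021), Gal3st1 (-0.054 to 0.089) and Sptlc2 (-0.031 to 0.12). Relative to the markers they were Cers2 (-0.059 to 0.076) and Elovl1 (-0.027 to 0.086), and in crush AAV-null against sham Elovl7 (-0.21 to 0.0049).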
